A study of Mus musculus with 2 samples.

Results

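The Trem receptors of mouse macrophages and the 2 adaptor proteins that can carry their signal were examined here in bone marrow-derived macrophages. The genes are Trem1, Trem2, Trem3, Treml2 and Treml4, Tyrobp, which encodes the adaptor DAP12, and Hcst, which encodes the adaptor DAP10. They were found by gene symbol, and all 7 were present among 55536 annotated genes. Macrophages were grown from marrow of the C57BL/6J strain, with no age or sex recorded. All cells received Lipid A at 100 ng/mL for 12 h, spent 12 h without it, and received 100 ng/mL again for the last 30 min. Tlr4 senses Lipid A, the membrane anchor of bacterial lipopolysaccharide. A label field names lipoprotein A in its place, and the labels do not settle which was used. The series held 1 group of 2 libraries of polyadenylated RNA, so no condition could be set against another and no test between groups was possible. The replicates have biosample records of their own under a shared donor record, and their spread may be partly technical.

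Trem receptors are cell surface proteins with an immunoglobulin-like outer domain and a short inner tail. Most of them cannot signal alone: a lysine in the membrane span pairs with an aspartate in the span of Tyrobp, whose tail carries a tyrosine motif (ITAM) that recruits the kinase Syk. Hcst pairs in the same way and carries a tyrosine-methionine motif that binds phosphoinositide 3-kinase and Grb2. In macrophages, Trem2 is known as a receptor for lipids and lipoproteins that supports survival and phagocytosis, and Trem1 as an amplifier of inflammatory responses to Toll-like receptor ligands.

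The membrane spans are shown because they carry the residues through which receptor and adaptor meet. For each gene the most hydrophobic run of 21 codons was found in the coding sequence of the GENCODE M21 annotation (mm10). Runs that begin near the start of the coding sequence were left out of the search. Codons for charged residues are in capitals. Each window of 63 bases lies within 1 exon.
Trem1: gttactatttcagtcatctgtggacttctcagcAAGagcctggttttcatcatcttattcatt
Trem2: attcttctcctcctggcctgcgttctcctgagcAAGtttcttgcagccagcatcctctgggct
Trem3: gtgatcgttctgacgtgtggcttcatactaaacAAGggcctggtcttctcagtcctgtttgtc
Treml4: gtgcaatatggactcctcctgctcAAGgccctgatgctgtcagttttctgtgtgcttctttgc
Treml2: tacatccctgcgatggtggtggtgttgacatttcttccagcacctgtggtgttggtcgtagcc
Tyrobp: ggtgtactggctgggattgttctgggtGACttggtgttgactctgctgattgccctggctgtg
Hcst: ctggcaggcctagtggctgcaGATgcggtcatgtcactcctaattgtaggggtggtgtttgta
Trem1, Trem2, Trem3 and Treml4 each had 1 charged codon in the window, and in all 4 it was the lysine codon AAG, at codons 214, 183, 149 and 209. Treml2 had none. The adaptors each had 1 aspartate codon, GAC at codon 52 of Tyrobp and GAT at codon 43 of Hcst. The windows of Trem2 (chr17:48351777-48351839) and Treml2 (chr17:48309132-48309194) lie in exon 4 of 5 of Trem2-201 and Treml2-201, on the plus strand. Those of Tyrobp (chr7:30414542-30414604, plus strand) and Hcst (chr7:30418119-30418181, minus strand) lie in exon 3 of each gene.

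The signalling motifs of the adaptors are shown with the tyrosine codons, and for Hcst also the methionine codon, in capitals.
Tyrobp: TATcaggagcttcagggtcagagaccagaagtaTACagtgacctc
Hcst: TACatcaacATG
The Tyrobp stretch spans codons 92 to 106, across the junction of exons 4 and 5. The Hcst stretch spans codons 72 to 75 in exon 4 (chr7:30417821-30417832, minus strand).

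Levels are given as TPM, transcript abundance corrected for length and depth, which allows genes to be compared with each other. Library totals were 41938419 counts in replicate 1 and 30780681 in replicate 2, so a gene with no count may still have up to 3 counts, which is 0.0715 and 0.0975 CPM. Intervals are exact 95% intervals and cover counting error only, not the spread between replicates. They treat reads as independent molecules, which sequencing reads are not, so they may be too narrow. The macrophage label was checked first: all 11 macrophage markers were detected, from 32.7 TPM for Cebpa to 11648 TPM for Lyz2, both in replicate 2. Adgre1, which encodes F4/80, stood at 2803 and 2492 TPM, and Cd68 at 3363 and 2538 TPM. The levels were not all alike in the 2 libraries. Cebpa stood at 71.2 and 32.7 TPM and Cd14, named after its values were seen, at 202 and 428 TPM. Detection required 1 TPM or more in each library, which 48.7% of 22028 protein-coding genes reached. Of the Trem receptors and adaptors, 5 of 7 reached it: Tyrobp, Trem2, Treml2, Hcst and Treml4.

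Tyrobp (ENSMUSG00000030579.10, chr7:30413760-30417585, plus strand) had the highest level of the 7 genes. It held 16371 counts and 1780.35 TPM in replicate 1, and 13103 counts and 1975 TPM in replicate 2. The mean of 1878 ± 138 TPM (SD, n = 2) placed it 44th among protein-coding genes. The other adaptor was far lower. Hcst (ENSMUSG00000064109.8, chr7:30417712-30419854, minus strand) held 100 and 49 counts, or 20.0 and 14.0 TPM, with a mean of 17.0 ± 4.19 TPM (SD, n = 2) and rank 5368. Tyrobp RNA therefore exceeded Hcst RNA 89.2-fold in replicate 1 and 141-fold in replicate 2. The Hcst counts behind this ratio were small, and the cause of the difference between the replicates was not tested. In the FASTQ-derived tables the ratio was 76.3 and 111.

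Trem2 (ENSMUSG00000023992.14, chr17:48346401-48354147, plus strand) was the most abundant receptor of the family. It held 6174 counts and 319 TPM in replicate 1, and 4895 counts and 327 TPM in replicate 2. Its mean was 323 ± 5.70 TPM (SD, n = 2) at rank 425, so the replicates lay close together. Treml2 (ENSMUSG00000071068.7, chr17:48299498-48312533, plus strand), the receptor with no charged codon in its window, came next. It held 3089 and 2988 counts, or 33.8 and 42.3 TPM, with a mean of 38.0 ± 6.04 TPM (SD, n = 2) at rank 3173. Treml4 (ENSMUSG00000051682.15, chr17:48264295-48275360, plus strand), a receptor known to bind dead cells, held 69 and 34 counts. Its levels of 1.67 and 1.25 TPM, with a mean of 1.46 ± 0.297 TPM (SD, n = 2), lay just above the detection threshold, at rank 10511.

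Trem3 (ENSMUSG00000041754.5, chr17:48247777-48258841, plus strand) and Trem1 (ENSMUSG00000042265.13, chr17:48232768-48246924, plus strand) were below the threshold in both libraries. Trem3, a Tyrobp-coupled receptor of mouse myeloid cells, held 7 and 10 counts, or 0.350 and 0.660 TPM, with a mean of 0.505 ± 0.219 TPM (SD, n = 2). Trem1 held 3 and 7 counts, or 0.0400 and 0.120 TPM, the lowest level of the 7 genes in each library, with a mean of 0.0800 ± 0.0566 TPM (SD, n = 2). The pseudogene AC241601.2 overlaps Trem1 on the other strand and had 0 counts in both libraries. Little sequence was shared with other genes. Of the 31-base words in the transcripts of Trem1, 0.703% also occurred in another gene, against 0.327% for Treml2, 0.0402% for Trem2 and 0 for Trem3, Treml4, Tyrobp and Hcst.

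**Figure D1:**
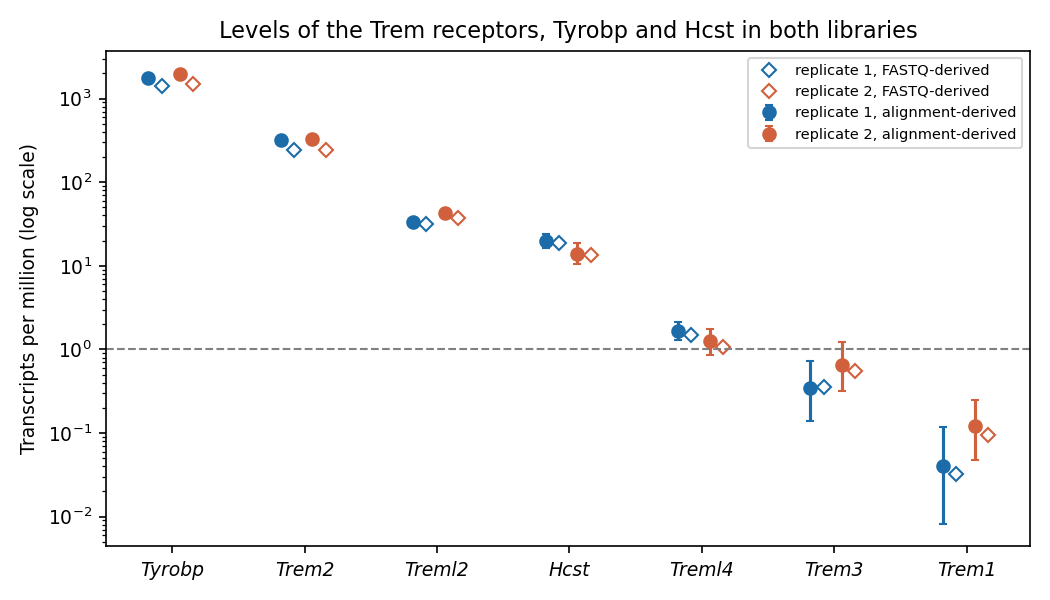
Level of each gene in TPM on a log axis, for replicate 1 (blue) and replicate 2 (orange). Circles are alignment-derived values with exact 95% counting intervals, diamonds are FASTQ-derived values, and the dashed line marks 1 TPM; Tyrobp lies near 1878 TPM and Trem1 near 0.0800 TPM.

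From the highest level to the lowest, the order was Tyrobp, Trem2, Treml2, Hcst, Treml4, Trem3 and Trem1, and it was the same in both libraries. No pair of neighbours in this order overlapped between libraries. Tyrobp stood 5.81-fold above Trem2, and Trem2 8.50-fold above Treml2, by their means. The smallest steps were 2.24-fold from Treml2 to Hcst and 2.89-fold from Treml4 to Trem3. The counting intervals of Treml4 and Trem3 overlapped in replicate 2, at 0.866 to 1.75 TPM against 0.316 to 1.21 TPM, so this last step was not resolved at the depth of that library. All other neighbouring intervals were separate in both libraries.

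The summed level of the 5 receptors was 355 and 372 TPM in the replicates. Trem2 made up 89.9 and 88.1% of it, and Treml2 9.51 and 11.4%. Trem1, Trem3 and Treml4 together gave 0.580 and 0.546%. Receptor RNA was thus nearly all Trem2 in both libraries. Tyrobp exceeded the summed receptors 5.01-fold and 5.31-fold, with a mean of 5.16 ± 0.212 (SD, n = 2). The sum includes Treml2, which had no charged codon in its window, and all transcripts of Trem2, also those whose frame lacks the window or that have none. Over Trem2 alone the ratio was 5.58 and 6.03. These are ratios of RNA, and protein was not measured.

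The 5 receptors form a cluster on chromosome 17, all on the plus strand, and their levels followed their position in it. Trem1, Trem3, Treml4, Treml2, B430306N03Rik, Trem2 and Treml1 lie in this order among protein-coding genes. The levels stepped up from Trem1 through Trem3, Treml4 and Treml2 to Trem2, but the gene past Trem2 broke this order. Treml1, a receptor of platelets and megakaryocytes, held 3 counts in each library, at 0.120 and 0.150 TPM, although it begins only 5768 bases beyond Trem2. B430306N03Rik, between Treml2 and Trem2, stood at 81.4 and 63.9 TPM. The stretch with the higher levels was therefore Treml2, B430306N03Rik and Trem2, and a gap of 24137 bases separates it from Treml4. On the outer side, 65492 bases before Trem1, the minus-strand gene A530064D06Rik stood at 37.8 and 54.7 TPM.

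Tyrobp and Hcst are neighbours on chromosome 7 with 126 bases between the ends of their annotated transcripts. They run on opposite strands and converge, so a read that crosses the gap could be assigned to either gene if counting ignored strand, which the sources used here do not give. Nfkbid, which encodes the nuclear inhibitor IkB-NS, begins 1877 bases beyond Hcst. Its level was 4.49 TPM in the first replicate and 18.5 TPM in the other. The log2 ratio of replicate 2 over replicate 1 was 2.11 (1.89 to 2.34), whereas Tyrobp and Hcst beside it had ratios of 0.13 and -0.57. Lrfn3, on the other side of Tyrobp at 50987 bases, stood at 0.350 and 0.590 TPM.

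**Figure D2:**
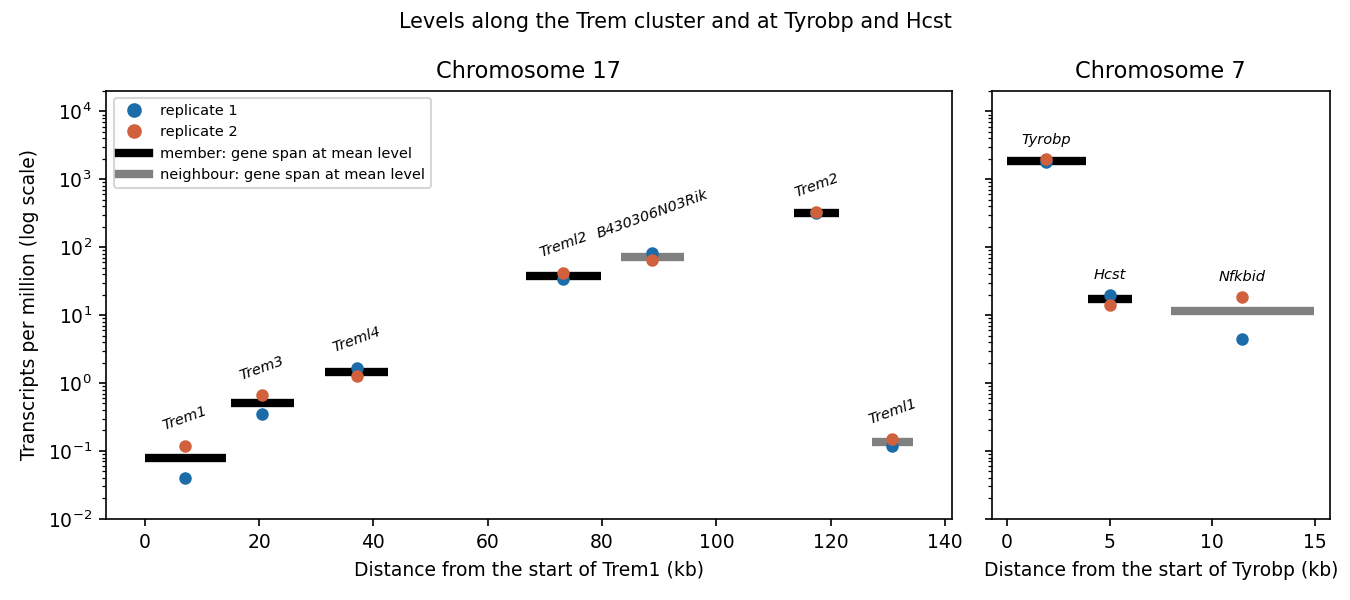
Level in TPM (log axis) against distance along the chromosome in kb, for the Trem cluster on chromosome 17 and for Tyrobp, Hcst and Nfkbid on chromosome 7. Bars span each gene at its mean level, black for the Trem receptors and adaptors and grey for neighbours, and points are the 2 libraries; A530064D06Rik and Lrfn3 lie outside the windows drawn, and Treml1 lies near the level of Trem1 although it is next to Trem2.

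Trem2 had 4 annotated transcripts, and 3 of them took a sizeable share of its RNA. Trem2-201, with a frame of 227 codons that includes the membrane window, took 57.8 and 63.2% of the gene's TPM in the alignment-derived tables and 66.8 and 69.8% in the FASTQ-derived tables. Trem2-202 took 14.6 and 12.5%, or 17.05 and 14.7% by the FASTQ-derived values. It begins exon 4 of 5 at an acceptor 55 bases further upstream (chr17:48351691-48351745), and these coding bases are shown because their number leaves 1 base over after division into codons.
Trem2-202: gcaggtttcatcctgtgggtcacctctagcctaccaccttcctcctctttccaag
The annotated frame of Trem2-202 has 249 codons and does not contain the window with the lysine codon.

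Trem2-204, a short transcript of 526 bases with no annotated frame, took 26.8 and 23.4% by the alignment-derived values but only 15.2 and 14.4% by the FASTQ-derived values. In counts it was smaller: 10.1 and 8.08% of the alignment-derived counts and 5.76 and 5.18% of the FASTQ-derived counts. The retained-intron transcript Trem2-203 took 0.739 and 0.95% of TPM. Summed over the gene, 42.2 and 36.8% of Trem2 TPM came from transcripts without a frame that keeps the membrane window, or 33.2 and 30.2% by the FASTQ-derived values. Among these transcripts only Trem2-202 has an annotated frame, and it took 14.6 and 12.5%, or 17.05 and 14.7% by the FASTQ-derived values. The rest of the sum came from Trem2-203 and Trem2-204, which have no annotated frame. Soluble Trem2 is known to arise by cleavage at the cell surface and, in some species, from transcripts without the span. The shares here are model estimates from short reads, and no protein from Trem2-202 was measured.

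Treml2 was divided between a pair of coding transcripts. Treml2-201 took 76.5 and 79.5% of TPM and Treml2-202 took 23.5 and 20.5%, against 69.6 and 73.5%, and 29.7 and 25.6%, by the FASTQ-derived values. Treml2-202 uses 177 further bases in exon 3 (chr17:48307880-48308056), a number that keeps the frame, which is then 329 codons long in place of 270. These bases are shown because they lengthen the outer part of the receptor.
Treml2-202: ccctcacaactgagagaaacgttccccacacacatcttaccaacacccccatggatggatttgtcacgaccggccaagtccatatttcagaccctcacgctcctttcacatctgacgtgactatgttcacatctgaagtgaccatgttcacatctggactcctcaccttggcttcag
Both frames contain the membrane window, so the division leaves the span of Treml2 as it is.

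The adaptors were each nearly uniform. Tyrobp-202 took 99.4 and 99.3% of Tyrobp TPM. Tyrobp-201 was listed at 0, but all its exons lie inside those of Tyrobp-202, so reads within the shared bases could come from either. The coding sequence of Tyrobp-201 was used above. It starts with an ATG codon and the annotated frame of Tyrobp-202 does not, but both contain the membrane window and the tyrosine motif. Tyrobp-203, annotated as a target of nonsense-mediated decay, took 0.571 and 0.693%. It carries a further exon of 67 bases, and its frame keeps the membrane window but loses the tyrosine motif. Hcst-201 took 94.99 and 93.1% of Hcst TPM, and the retained-intron transcript Hcst-202 took 3.31 and 6.91%, from 3.11 and 3.15 counts. Hcst-203 lacks exon 2, the 24 bases shown here, and had 1.09 counts in replicate 1 and 0 in replicate 2.
Hcst-201 exon 2: tggctgcaagtcagacatcggcag
Trem1-202 had 0 counts in each library. Treml4-201 held all Treml4 TPM in replicate 1 and 83.2% in replicate 2, where the rest rested on 1.74 counts of Treml4-205.

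**Figure D3:**
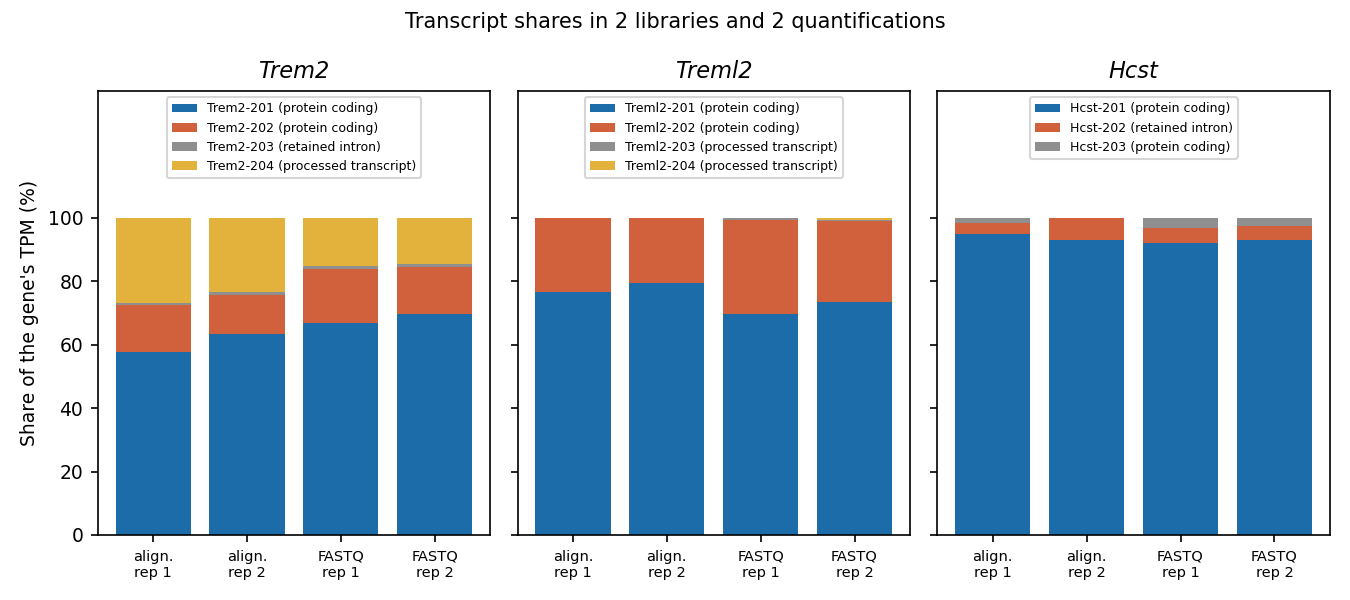
Share of each gene's TPM per annotated transcript for Trem2, Treml2 and Hcst, in the alignment-derived and the FASTQ-derived tables of both replicates. The 2 quantifications differ most for Trem2-204, at 26.8 and 23.4% against 15.2 and 14.4%, while the replicates of 1 quantification lie close together.

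Gene levels also moved with the quantification. The alignment-derived TPM of Tyrobp was 1.30 times the FASTQ-derived TPM, and that of Trem2 1.32 times, whereas the median protein-coding gene had a ratio of 1.13. Their counts differed little: FASTQ-derived counts were 1.07 times the alignment-derived ones for Tyrobp and 1.06 times for Trem2, beside a median of 1.08. Hcst had a TPM ratio of 1.06, below the median of 1.13, and 1.42 times as many counts in the FASTQ-derived tables (138 and 74). The effective length by which its counts were divided was only 179 and 163 bases, and that of Tyrobp 328 and 311 bases. For Treml2 it was 3268 and 3308 bases, and the TPM ratio of Treml2 was 1.11. The part of the effective length in these differences was not tested. The ratio of Tyrobp to the summed receptors hardly moved, at 5.10 and 5.25 by the FASTQ-derived values.

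Between the replicates, scaled counts were compared as the log2 ratio of replicate 2 over replicate 1, with 0.5 added to each. Genes with at least 20 counts in each library were counted as apart at a 2-fold ratio or more. Of 12471 such genes, 1.94% were at least 2-fold higher in replicate 2 and 0.521% at least 2-fold lower. Of the Trem receptors and adaptors, 5 passed the count filter and 0 of these were 2-fold apart, which at such a background says little about them. Trem2 had a log2 ratio of 0.12 (0.06 to 0.17) and Tyrobp of 0.13 (0.10 to 0.17). Of all genes that passed the filter, 68.0 and 64.4% had ratios at least as far from 0. Many of these genes have fewer counts than Trem2 and Tyrobp, and no set matched by counts was used. Treml2 was higher in replicate 2 by 0.41 (0.33 to 0.48), and 19.6% of genes were as far out.

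The 4 genes with the lowest levels had wide intervals. Hcst had a log2 ratio of -0.57 (-1.10 to -0.07) and Treml4 of -0.56 (-1.20 to 0.05), and 9.94 and 10.5% of genes lay as far from 0. Trem1 and Trem3 did not pass the count filter. Their ratios of 1.51 (-0.46 to 4.26) and 0.91 (-0.57 to 2.60) rest on 3 to 10 counts, and both intervals include 0. With 1 library on each side no p-value was computed for any of these ratios.

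**Figure D4:**
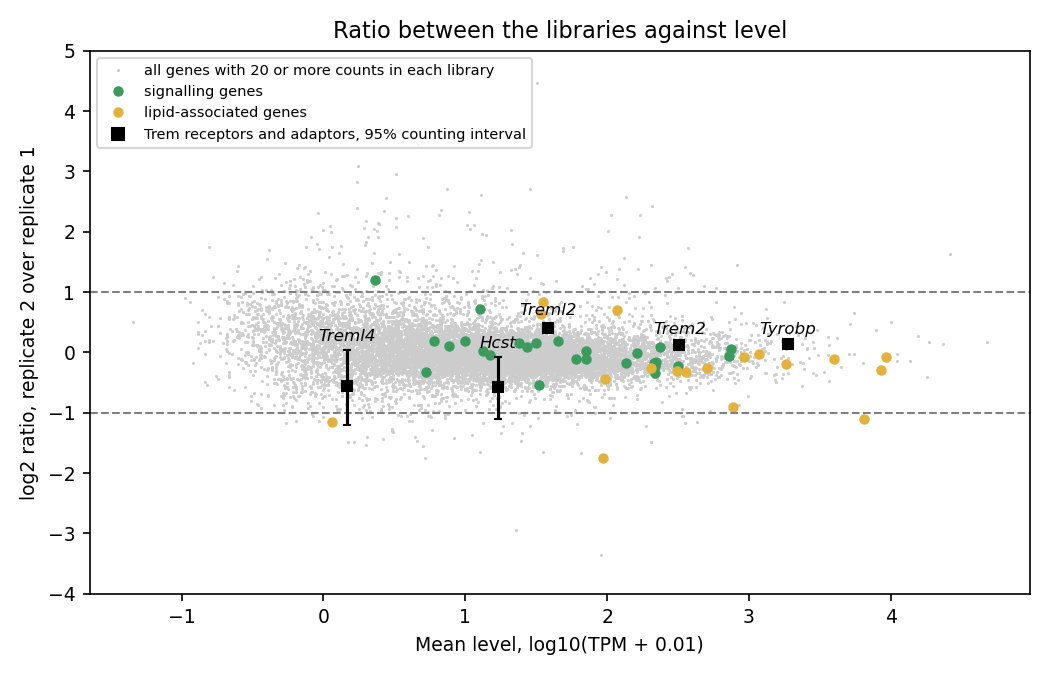
Log2 ratio of replicate 2 over replicate 1 against mean level, log10(TPM + 0.01), for all genes with 20 or more counts in each library (grey), signalling genes (green), lipid-associated genes (yellow) and the Trem receptors and adaptors (black squares with exact 95% counting intervals). Dashed lines mark 2-fold; the 5 black squares lie between -0.57 and 0.41, while 3 lipid-associated genes lie below the lower line.

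Other receptors that signal through Tyrobp or Hcst were followed as a list of 15, together with Fcer1g, the Fc receptor gamma chain, which is an adaptor with the same kind of motif. Of these 15 genes, 11 were detected, beside 48.7% of protein-coding genes. Of the 11 that passed the count filter, 0 were 2-fold apart, at a median log2 ratio of -0.03 beside -0.02 for all genes. With 1.94% of all genes higher and 0.521% lower, a count of 0 among 11 lay near the background. Fcer1g led at 4252 and 3063 TPM, which was 2.39 and 1.55 times the level of Tyrobp. Cd200r4, an activating relative of the CD200 receptor, stood at 106 and 101 TPM, and Pilrb1 at 35.7 and 49.4 TPM. Of the words in Pilrb1 transcripts, 50.1% also occur in another gene, so its level is uncertain. Clec5a, a lectin receptor that binds Tyrobp, stood at 17.5 and 20.3 TPM. Klra8, a natural killer cell receptor, had 0 counts in both libraries.

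Cd200r4 was the highest receptor of the list, and Trem2 stood 3.12-fold above it by their means. Klrk1 (NKG2D), a partner receptor of Hcst, was chosen after its values were seen. It held 266 and 132 counts, or 7.45 and 4.13 TPM, at a log2 ratio of -0.56 (-0.87 to -0.25). The ratio of Hcst was -0.57 with a wide interval (-1.10 to -0.07), and 9.94% of all genes that passed the count filter lay at least as far from 0. A link between Klrk1 and Hcst was not tested.

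The machinery downstream of both motifs was present almost throughout. Of 28 signalling genes, 26 were detected, beside 48.7% of protein-coding genes. Of the 26 that passed the count filter, 1 was at least 2-fold higher in replicate 2 and 0 were lower, with a median log2 ratio of 0.01. With 1.94% of all genes higher and 0.521% lower, these counts lay near the background. Grb2, the adaptor that binds the Hcst motif, stood at 784 and 721 TPM. Pik3ap1, an adaptor of phosphoinositide 3-kinase, stood at 749 and 693 TPM. Syk, the kinase that docks on the phosphorylated Tyrobp motif, stood at 237 and 205 TPM. Zap70, its relative of T cells, held 4 and 0 counts. The gene that was 2-fold apart, named after its values were seen, was the Src family kinase Fgr, at 1.42 and 3.14 TPM.

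Of 12 negative regulators of this signalling, 11 were detected, beside 48.7% of protein-coding genes. Of the 11 that passed the count filter, 0 were 2-fold apart, at a median log2 ratio of -0.06 beside -0.02 for all genes. A count of 0 among 11 lay near the background of 1.94% higher and 0.521% lower. Ptpn6, the phosphatase SHP-1, stood at 431 and 375 TPM. Csk, which restrains Src family kinases, stood at 254 and 203 TPM, and Inpp5d, the lipid phosphatase SHIP1 that is known to bind Tyrobp, at 195 and 148 TPM. Sla2 held 11 and 8 counts.

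RNA of most ligands and cleaving enzymes reported for Trem receptors was also present. Of 10, 9 were detected, beside the 48.7% of protein-coding genes. In replicate 2, 1 of 9 was lower by 2-fold or more (0.521% of all genes) and 0 were higher by that much (1.94%). That gene was Apoe, a lipoprotein ligand of Trem2, with 8958 TPM in replicate 1 and 4075 TPM in replicate 2, at a log2 ratio of -1.10 (-1.11 to -1.09). Lgals3 stood at 1966 and 1678 TPM and Vim at 1265 and 1300.46 TPM. Pglyrp1, a reported Trem1 ligand of neutrophils, held 8 and 0 counts. Adam10 and Adam17, the proteases that shed Trem2 from the surface, stood at 44.8 and 38.3 TPM and at 59.7 and 58.5 TPM. The sheddases were steady between libraries, with log2 ratios of -0.17 and 0.03.

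Genes linked to Trem2 in lipid-associated macrophages and microglia formed a list of 18, of which 17 were detected, beside 48.7% of protein-coding genes. Ctsb stood at 9718 and 8850.2 TPM and Gpnmb at 9581 and 7456 TPM. Of the 18 that passed the count filter, 3 were lower by 2-fold or more in replicate 2 and 0 were higher by that much, beside the 0.521% of all genes. The 3 were Apoe, Itgax (1.60 and 0.690 TPM) and, named after its values were seen, the lipid receptor Cd36 (145 and 41.1 TPM). The median log2 ratio of the list was -0.25, and 15 of its 18 genes were lower in replicate 2. Among all genes that passed the filter the median was -0.02, and 6681 of 12471 were lower. The macrophage markers had nearly the same median of -0.24, with 9 of 11 lower. By 2-fold or more, 1 of these 11 was higher in replicate 2 (Cd14) and 1 lower (Cebpa), beside 1.94 and 0.521% of all genes. Trem2 itself was not lower in replicate 2, at 319 and 327 TPM.

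**Figure D5:**
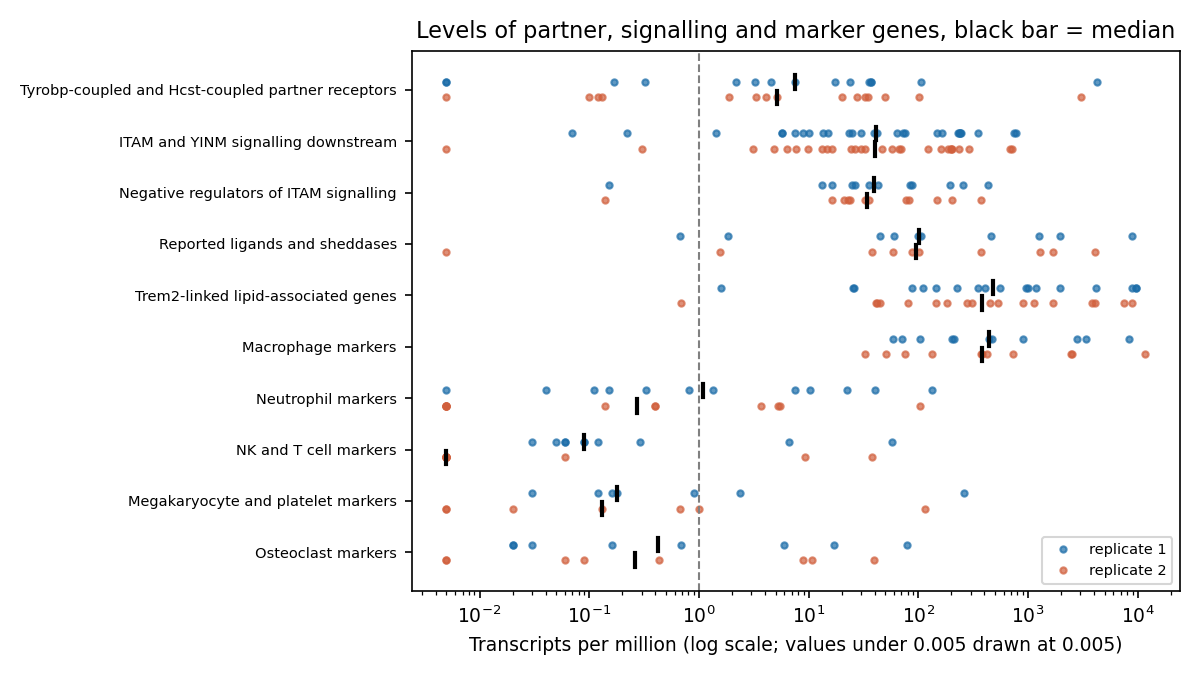
TPM (log axis) of every gene in the lists drawn, with replicate 1 in blue, replicate 2 in orange and the list median as a black bar. Drawn are the partner, signalling, regulator, ligand and lipid-associated lists and most marker lists. The B cell, dendritic cell and stromal markers are not drawn, and values at or very near 0 are placed at a fixed low level. The signalling list has medians of 40.9 and 40.0 TPM, while the median of natural killer and T cell markers is 0.0900 and 0 TPM.

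Markers of other cells differed between the libraries and are given because Trem1, Trem3 and Hcst are also transcribed in neutrophils or lymphocytes. Of 12 neutrophil markers, 4 were detected, beside 48.7% of protein-coding genes. The summed level of the list was 218 TPM in replicate 1 against 119 TPM in the other library. Csf3r made up most of it at 135 and 103 TPM. S100a8 held 138 and 16 counts and S100a9 277 and 26 counts, while Ly6g had 0 counts in both. In bulk RNA, fewer cells of a type and less RNA per cell cannot be told apart. Trem1 held 3 and 7 counts and Trem3 7 and 10 counts in these libraries, and the part of neutrophils in them was not tested.

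Of 10 natural killer and T cell markers, 2 were detected, beside 48.7% of protein-coding genes. These were Cd4 at 58.2 and 37.7 TPM and Il7r at 6.59 and 9.20 TPM. The other 8 were at or below 0.290 TPM, and 7 of 10 had 0 counts in replicate 2, among them Nkg7 and Klrb1c. Hcst had 100 and 49 counts in the same libraries, and the part of these cells in its level was not tested. Of 7 megakaryocyte and platelet markers, 2 were detected, beside the same 48.7%. They were Pf4 at 259 and 115 TPM and Ppbp at 2.37 and 1.00 TPM, while Itga2b stood at 0.910 and 0.670 TPM. All 7 stromal markers were detected, again beside 48.7%. The highest were Col1a1 at 214 and 243 TPM, Col1a2 at 161 and 186 TPM and Col3a1 at 146 and 162 TPM. The lowest was Pdgfrb at 3.49 and 4.14 TPM. Each of the 7 was somewhat higher in replicate 2, at a median log2 ratio of 0.27. Among all genes that passed the count filter, 5790 of 12471 were higher there and the median was -0.02. The part of stromal cells in any level above was not tested.

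The remaining markers were mostly low, and the numbers detected stand beside 48.7% of protein-coding genes. Of 6 B cell markers, 2 were detected, Cd79b at 7.78 and 3.96 TPM and Ighm at 1.33 and 1.47 TPM, while Cd79a and Pax5 held 2 and 1 counts each. Of 7 dendritic cell markers only Ccr7 was detected, at 2.61 and 2.41 TPM. Clec9a and Xcr1 stayed at or below 0.440 TPM, and Cd209a had 0 counts in both libraries. Osteoclasts, which also use Tyrobp and Trem2, share several genes with macrophages, and 3 of 8 of their markers were detected. These were Acp5 at 79.5 and 39.5 TPM, Atp6v0d2 at 17.2 and 10.7 TPM and Ctsk at 5.92 and 8.96 TPM, while Calcr held 2 and 0 counts.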

How the data were processed

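Polyadenylated RNA of 2 libraries was sequenced, and the labels gave both the same treatment and their replicate numbers. The authors deposited 3 tables per library. Per the file headers and deposited notes, 2 of them (genes, transcripts) give expected counts with TPM from an alignment, and the other gives estimated counts with TPM per transcript straight from FASTQ files; all use mm10 with annotation M21. Quantification tools, their versions and the use of strand: not given in the sources used here. Each authors' table also lists effective lengths in bases.

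Alignment-derived gene values were the main ones, with expected counts rounded to whole numbers. Entries that name no annotated gene took 0.0526 and 0.0667% of counts and were left out. TMM factors scaled the libraries (edgeR 4.0.16, R 4.3.3); total counts or size factors of DESeq2 1.42.0 were tried in their place. Other steps used Python 3.11.15, scipy 1.17.1 and Biopython 1.88. Intervals are Clopper-Pearson or exact Poisson intervals at 95%. The ratio and 2-fold rule were tried only on simulated counts with counting error, with known changes placed in genes of higher counts. Spread between replicates and changes in genes with few counts, such as Hcst and Treml4, lay outside this trial. Sequences came from the GENCODE M21 transcripts and gene models, hydropathy over 21 codons from the Kyte-Doolittle scale, and shared sequence from 31-base words.

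The genes and the 13 lists were chosen with earlier results of these data known. Named genes were all 7 members, the 3 highest and the lowest of each list by mean TPM, Clec5a, Fcer1g, Syk, Apoe, Adam10, Adam17 and Ptpn6, and adjacent protein-coding genes. Some genes this rule names are not reported here. With 1 group, no test between conditions was made.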

Additional observations from a re-analysis of the deposited data

How the results depend on the processing

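The order of the 7 genes and the 5 detected did not depend on the quantification, while some levels did. With FASTQ-derived TPM, the mean of Trem2 was 244 TPM in place of 323, and that of Tyrobp 1449.5 TPM in place of 1878; the cause was not tested. Transcript shares moved by more than the spread between replicates for Trem2-201 (68.3%), Trem2-202 (15.9%), Trem2-204 (14.8%), Treml2-201 (71.6%), Treml2-202 (27.7%) and Hcst-201 (92.5%). Without a filter on low counts, 2993 genes were higher and 2581 lower by 2-fold or more in replicate 2, in place of 242 and 65, and 1 of the 7 genes, Trem1 with 3 and 7 counts, was among the higher ones. With at least 100 counts in each library the numbers were 104 and 32. No log2 ratio of the 7 genes changed sign under another scaling, the FASTQ-derived counts or 5 added. No paired analysis was possible because there is only 1 group. At 5 TPM, 4 of the 7 genes were detected. Leaving out either replicate leaves the value of the other: Tyrobp over the summed receptors then runs from 5.01 to 5.31, and Tyrobp over Hcst from 89.2 to 141. With 2 libraries, an SD is a poor estimate of the spread, and Trem1, Trem3 and Treml4 are limited by counts of 69 or fewer.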

Other observations

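B430306N03Rik, the gene between Treml2 and Trem2, had transcript shares that differed between the quantifications. Its transcript B430306N03Rik-203, annotated as a target of nonsense-mediated decay, took 3.77 and 4.26% of the gene's TPM by the alignment-derived values and 24.5 and 19.0% by the FASTQ-derived values. Of the 31-base words in the gene's transcripts, 6.62% also occur in another gene, and A530064D06Rik, on the other side of the Trem cluster, shares more of them than any other gene. The most hydrophobic window of B430306N03Rik, like that of Treml2, holds no codon for a charged residue.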
